A study of Homo sapiens with 30 samples.

Results

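The step between the 2 highest of the low androgen doses, 0.1 nM against 0.06 nM R1881, was examined in LNCaP cells with 3 libraries a dose, 6 of the 30 samples of the series, chosen by the cell line and dose in their labels. LNCaP is an established androgen-sensitive line, derived from a prostate cancer that had spread to a lymph node, and R1881, or methyltrienolone, is a synthetic androgen that resists metabolism. All groups were cells held for 48 h in medium whose 8% serum had been stripped with charcoal and dextran, and then treated for 24 h. The groups compared were 0.1 nM and 0.06 nM R1881; 10 nM and 0.03 nM R1881, each with vehicle as its control, were used beside them, with 3 libraries in every group, numbered 2, 3 and 4. The labels do not say that the 3 libraries of a dose came from separate cultures, so p-values measure only the spread between these libraries. The series compares low with high androgen doses, and the question taken up here is where genes stood at the first turn of that dose response: still rising, level or already falling between 0.06 and 0.1 nM, a 1.67-fold increase in dose.

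Androgens are steroid hormones that act on transcription through DNA response elements built from hexamers related to AGAACA. In prostate epithelium they switch on secretory genes such as KLK3 and genes of lipid synthesis and protein export, and they lower other genes, many of them active in androgen-deprived cells. LNCaP cells are known for a biphasic growth response, in which low androgen stimulates division and high androgen restrains it.

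The 6 libraries held 30666460 to 46618984 counts. Luminal markers were abundant: KRT8, KRT18, KLK3, HOXB13 and FOLH1 each stood at 389 CPM (counts per 1e6, scaled by TMM factors) or above in all 6 libraries. The defining markers of other cell types KRT15, PTPRC, CHGA and INSM1 had no count, which in the smallest library allows up to 0.0978 CPM (3 counts, counting error only). Of the other 15 such markers in the table, COL1A1 (18.2 to 27.6 CPM) and VWF (14.8 to 21.4 CPM) were above 3 CPM in these libraries, and KRT5 and COL1A2 were not analysed here. Mitochondrially encoded genes took 9.62% of the counts in 0.1 nM replicate 3 and 9.31% in 0.06 nM replicate 3, against 6.7% to 7.04% in the other 4 libraries; their part in the results was not tested. Levels are CPM, fold changes are log2 values ± SE from 1 edgeR fit to 18403 genes, and n = 3 libraries a dose throughout.

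Few genes passed the test for this step, and most of those that did went up. edgeR's quasi-likelihood test with Benjamini-Hochberg adjustment called 197 genes higher at 0.1 nM than at 0.06 nM (1.07% of those tested) and 54 lower (0.293%). Of these, 61 rose and 28 fell by at least 1.5-fold, and 26 rose and 4 fell by at least 2-fold. In bulk RNA, fewer cells of a kind and less RNA per cell cannot be told apart. Another 7443 genes (40.4%) had a 95% interval of the change that lay wholly within 1.2-fold either way and are called held here. The remaining 10709 (58.2%) were undecided, neither called nor held. In all 251 called genes the libraries of the doses did not overlap, whereas over all genes tested 7.87% had every 0.1 nM library above every 0.06 nM library and 7.09% had every one below. With the replicate number as a block, which the data bear out as a pairing, 594 genes were higher (3.23%), 305 lower (1.66%), 8642 held (47%) and 8862 undecided (48.2%), and all 251 were among the called in the same direction. The counts fell when any 1 library of the step was left out, which also leaves fewer libraries at that dose. They were 107 higher and 37 lower without 0.06 nM replicate 2, 155 and 30 without 0.06 nM replicate 3, and 86 and 20 without 0.06 nM replicate 4. They were 173 and 39 without 0.1 nM replicate 2, 106 and 30 without 0.1 nM replicate 3, and 93 and 24 without 0.1 nM replicate 4. Without the 5 libraries numbered 3 they were 305 and 103.

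Among genes with a mean of at least 5 CPM at 0.1 or 0.06 nM, the 12 largest rises were in genes of varied function; called genes below that level, STEAP4 and SLC2A3 among them, had larger fold changes. FKBP5, a co-chaperone of steroid receptors (ENSG00000096060.15, GRCh38, GENCODE 29, chr6:35573585-35728583), had 433, 516 and 494 CPM at 0.1 nM, against 220.4, 206 and 206 CPM at 0.06 nM. All 3 libraries at 0.1 nM lay far above those at 0.06 nM, a 2.28-fold rise (log2 1.19 ± 0.066, edgeR adjusted p = 2.37e-08). SLC38A4, a sodium-coupled transporter of neutral amino acids (ENSG00000139209.16, chr12:46764761-46832408), had 8.66, 7.8 and 10.1 CPM at 0.1 nM, against 3.82, 3.1 and 3.38 CPM at 0.06 nM. The doses did not overlap, and the rise was 2.55-fold (log2 1.35 ± 0.14, edgeR adjusted p = 7.57e-05). NPPC, the precursor of C-type natriuretic peptide, had 4.43, 5.05 and 6.41 CPM at 0.1 nM, against 1.81, 2.14 and 1.52 CPM at 0.06 nM (log2 1.54 ± 0.18, edgeR adjusted p = 0.000134), again with every library at 0.1 nM above every library at 0.06 nM.

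TTN, which encodes the giant muscle protein titin (chr2:178525989-178830802), had 8.73, 13 and 12.5 CPM at 0.1 nM, against 4.33, 3.46 and 4.9 CPM at 0.06 nM (log2 1.42 ± 0.23, edgeR adjusted p = 0.00282). Its neighbour CCDC141, a coiled-coil protein gene (chr2:178829757-179050086), had 15.2, 14.7 and 16.7 CPM at 0.1 nM, against 7.46, 6.32 and 7.18 CPM at 0.06 nM (log2 1.14 ± 0.16, edgeR adjusted p = 0.000644). The doses overlapped in neither gene. The 2 loci overlap on the minus strand, so how reads were divided between them is not known. Transcription factors were among the largest rises. SNAI2, the repressor Slug, had 6.77, 7.1 and 6.68 CPM at 0.1 nM, against 2.54, 3.42 and 3.2 CPM at 0.06 nM (log2 1.18 ± 0.14, edgeR adjusted p = 0.000181). MAF, a basic leucine zipper factor, had 54.4, 72.3 and 69.95 CPM at 0.1 nM, against 30.2, 35.8 and 29.9 CPM at 0.06 nM (log2 1.04 ± 0.11, edgeR adjusted p = 7.57e-05). NDRG1, a gene known to respond to androgen and to stress, had 117, 134 and 127 CPM at 0.1 nM, against 62.4, 74 and 65.7 CPM at 0.06 nM (log2 0.90 ± 0.10, edgeR adjusted p = 0.000155). In each of these 3 genes the doses were separated by a clear gap.

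The other 4 of the 12 largest rises encode extracellular or surface proteins and an enzyme. F5, coagulation factor V, rose by log2 0.96 ± 0.14, SPOCK1, the proteoglycan testican-1, by log2 1.08 ± 0.19, and SDK1, an adhesion molecule of the immunoglobulin superfamily, by log2 0.88 ± 0.18 (edgeR adjusted p = 0.0199). CSGALNACT1, an enzyme of chondroitin sulfate synthesis, had 9.17, 14.1 and 10.1 CPM at 0.1 nM, against 3.65, 7.64 and 3.93 CPM at 0.06 nM (log2 1.17 ± 0.28, edgeR adjusted p = 0.0443). Its highest library at 0.06 nM, replicate 3, lay close below its lowest at 0.1 nM. CSGALNACT1 and SDK1 lost their calls when single libraries were left out: without 0.06 nM replicate 2, 0.06 nM replicate 4, 0.1 nM replicate 3 or 0.1 nM replicate 4 for both, and for CSGALNACT1 also without vehicle replicate 2 or 4, 0.03 nM replicate 4 or 10 nM replicate 4, and with DESeq2. The other 10 of the 12 passed the test without any 1 of the 15 libraries.

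**Figure D1:**
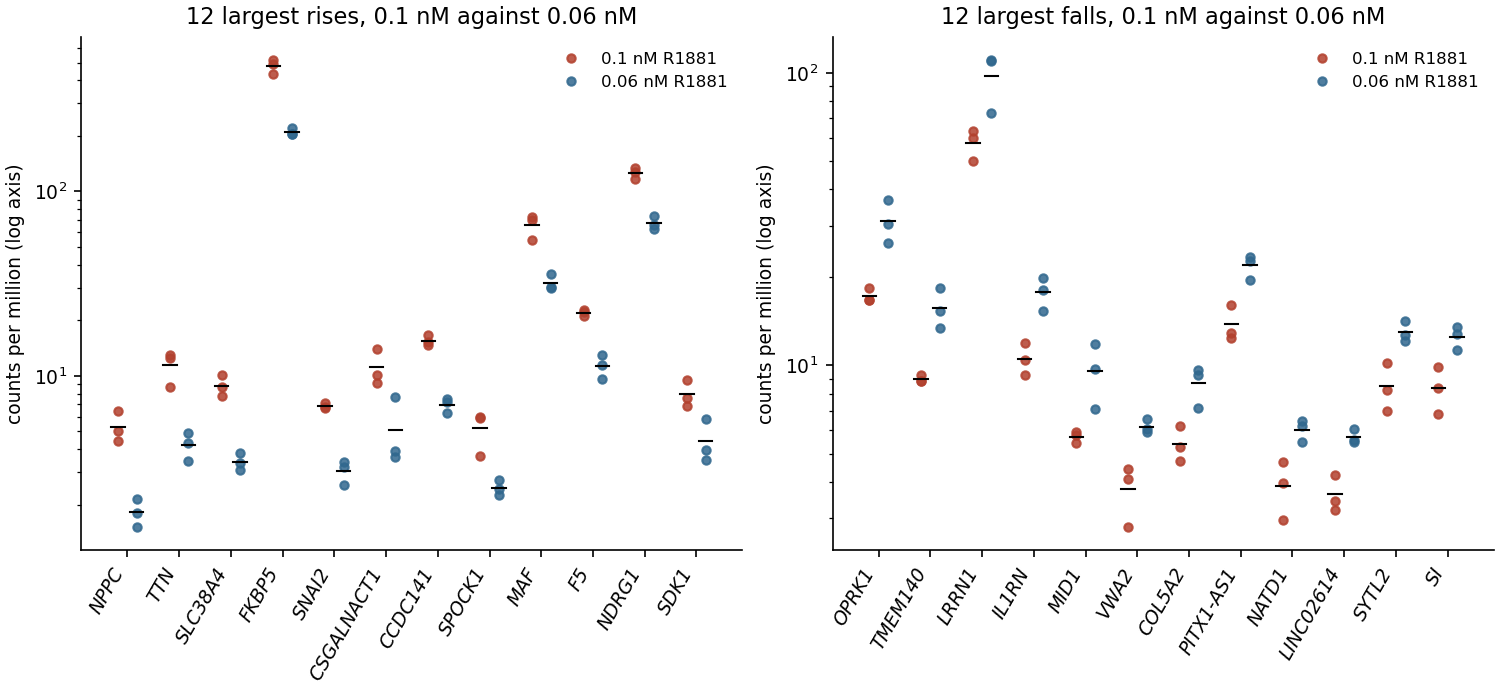
Levels in each library of the 12 genes with the largest called rises (left) and falls (right) among those with a mean of at least 5 CPM at 1 of the 2 doses, in CPM on a log axis; points are libraries, bars the mean of 3. In all 24 genes the 3 libraries at 0.1 nM (left of each pair) and at 0.06 nM (right) do not overlap, and FKBP5 stands at 433 to 516 CPM against 206 to 220.4 CPM.

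At the same level of at least 5 CPM, the 12 largest falls were smaller than the 12 largest rises (less abundant called genes such as DAB1, at log2 -1.21, fell further), and 3 of 12 kept their call whichever library was left out, against 10 of 12 rises. OPRK1, the kappa opioid receptor (chr8:53225716-53251697), had 16.8, 18.4 and 16.7 CPM at 0.1 nM, against 26.2, 36.8 and 30.4 CPM at 0.06 nM (log2 -0.84 ± 0.12, edgeR adjusted p = 0.00111). The 0.1 nM libraries lay closer together than the 0.06 nM libraries, and all 3 were lower. TMEM140, a transmembrane protein gene, had 9.29, 8.87 and 8.82 CPM at 0.1 nM, against 13.4, 18.4 and 15.3 CPM at 0.06 nM (log2 -0.80 ± 0.11, edgeR adjusted p = 0.000644). IL1RN, the antagonist of the interleukin-1 receptor, had 10.4, 11.9 and 9.26 CPM at 0.1 nM, against 15.4, 19.98 and 18.1 CPM at 0.06 nM (log2 -0.75 ± 0.13, edgeR adjusted p = 0.00379). OPRK1, TMEM140 and IL1RN, whose doses did not overlap, are these 3 genes. LRRN1, a leucine-rich repeat membrane protein, had 50.1, 63.5 and 59.9 CPM at 0.1 nM, against 73.2, 111 and 109.6 CPM at 0.06 nM (log2 -0.76 ± 0.15, edgeR adjusted p = 0.0118), and 0.06 nM replicate 2 was lower than the other libraries of its dose. Its call was lost without 0.1 nM replicate 2, 0.06 nM replicate 3 or 0.06 nM replicate 4.

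The other 8 of the 12 largest falls lay between log2 -0.73 ± 0.15 for MID1, a microtubule-associated ubiquitin ligase, and -0.60 ± 0.14 for SI, the digestive enzyme sucrase-isomaltase (edgeR adjusted p = 0.0461). They included COL5A2, a chain of type V collagen (-0.68 ± 0.14), VWA2, which has von Willebrand factor A domains (-0.72 ± 0.17), SYTL2, an effector of vesicle docking (-0.60 ± 0.13), NATD1 (-0.66 ± 0.16), PITX1-AS1, annotated as antisense and counted with a strand setting that is not given (-0.67 ± 0.13), and the long noncoding RNA LINC02614 (-0.64 ± 0.14). Each of these 8 lost its call in 4 to 11 of the 15 fits that left out 1 library, in each case including the fit without 0.06 nM replicate 4. Over the 12 largest falls the libraries whose loss ended most calls were 0.06 nM replicate 4 (3 of 12 still called), 0.06 nM replicate 3 (4 of 12) and 0.1 nM replicate 4 (5 of 12). Library totals in place of TMM factors ended the calls of VWA2, NATD1 and SI, RLE size factors that of NATD1, and leaving out the libraries numbered 3 that of MID1. With the replicate block all 12 passed.

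Promoter sequences of 6 genes are shown because they hold a match to a motif searched for androgen or cell cycle genes. The window is the 250 bases before the start of transcription in RefSeq's annotation (GRCh38.p14), written 5′ to 3′ along the gene's strand, with the matched letters in capitals. KLK3 (chr19:50854665-50854914, plus strand), SLC38A4 (chr12:46825998-46826247, minus strand), TTN (chr2:178807424-178807673, minus strand) and the falling gene TMEM140 (chr7:135147822-135148071, plus strand) each hold 1 match to the hexamer AGAACA or its reverse complement TGTTCT. POLA1 (chrX:24693668-24693917, plus strand) and RFC3 (chr13:33817899-33818148, plus strand), replication genes, each hold 1 match to the E2F motifs TTTCCCGC or TTTGGCGC or their reverse complements.
KLK3: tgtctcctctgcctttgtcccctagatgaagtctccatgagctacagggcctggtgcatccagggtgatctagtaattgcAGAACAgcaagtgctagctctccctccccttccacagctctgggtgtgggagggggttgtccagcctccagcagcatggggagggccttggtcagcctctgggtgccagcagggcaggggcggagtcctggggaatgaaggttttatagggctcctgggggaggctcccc
SLC38A4: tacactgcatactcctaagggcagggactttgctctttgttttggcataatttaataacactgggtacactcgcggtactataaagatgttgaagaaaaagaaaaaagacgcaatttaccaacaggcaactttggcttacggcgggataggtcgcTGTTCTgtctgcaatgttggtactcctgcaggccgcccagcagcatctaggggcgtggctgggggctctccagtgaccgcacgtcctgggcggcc
TTN: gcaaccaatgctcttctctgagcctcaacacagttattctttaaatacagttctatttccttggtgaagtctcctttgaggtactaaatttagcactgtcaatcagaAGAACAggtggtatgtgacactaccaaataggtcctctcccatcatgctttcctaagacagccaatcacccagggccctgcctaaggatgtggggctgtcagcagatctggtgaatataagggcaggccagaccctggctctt
TMEM140: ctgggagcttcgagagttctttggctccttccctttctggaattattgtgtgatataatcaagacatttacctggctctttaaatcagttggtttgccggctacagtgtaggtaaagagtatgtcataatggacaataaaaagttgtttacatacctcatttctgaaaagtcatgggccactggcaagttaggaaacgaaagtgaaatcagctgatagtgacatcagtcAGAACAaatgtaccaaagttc
POLA1: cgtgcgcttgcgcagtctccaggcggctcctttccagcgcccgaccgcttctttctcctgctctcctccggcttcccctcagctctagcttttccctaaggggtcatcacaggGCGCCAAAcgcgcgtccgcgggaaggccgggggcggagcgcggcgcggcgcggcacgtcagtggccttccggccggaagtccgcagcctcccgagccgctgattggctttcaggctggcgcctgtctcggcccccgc
RFC3: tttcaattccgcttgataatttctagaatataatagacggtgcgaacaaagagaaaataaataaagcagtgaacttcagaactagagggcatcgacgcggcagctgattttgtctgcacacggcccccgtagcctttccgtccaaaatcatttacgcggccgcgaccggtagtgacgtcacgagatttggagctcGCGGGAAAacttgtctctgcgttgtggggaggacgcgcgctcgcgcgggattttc
A hexamer match was in 17 of 152 promoters matched to genes that rose (11.2%) and in 5 of 35 matched to genes that fell (14.3%), beside 7.56% of 11984 promoters of tested genes and 12.4% of all 27305 in the table. The full inverted repeat, AGAACA and TGTTCT with any 3 bases between them, was in none of the promoters of either group and in 1 of the 27305. An E2F motif was in 13 of 38 promoters of the DNA replication list (34.2%), in 4 of the 152 (2.63%), and in 3.08% of the promoters of tested genes. Both strands were searched, these are counts of letters and not of bound sites, and no test was made.

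To ask which genes were already moving at the first dose, genes were classed by 0.03 nM against vehicle, a contrast that shares no library with the step. Both contrasts come from 1 fit and share each gene's estimate of spread, so their calls are not independent. Of the 1007 genes higher at 0.03 nM (5.47% of those tested), 111 (11%) were called higher again at 0.1 nM than at 0.06 nM. Over all genes the share called higher was 1.07%. Of the 1007, 397 (39.4%) were held, close to the 40.4% of all genes, and 499 were undecided. In edgeR none of the 1007 was called lower (3 at an unadjusted p under 0.05, as were 824 of all 18403 genes, and none with DESeq2). Their median change across the step was a log2 of 0.13, and 90.8% were above 0, beside 49.5% of all genes, whose median was -0.0014. Of the 581 genes lower at 0.03 nM (3.16%), 43 (7.4%) were called lower again, beside 0.293% of all genes. Of the 581, 219 (37.7%) were held, 318 were undecided and 1 was called higher. Their median was -0.14, and 88.3% were below 0. The rising count was 65 without 0.06 nM replicate 2, 69 without 0.1 nM replicate 3, 58 without 0.1 nM replicate 4 and 56 without 0.06 nM replicate 4. The falling count was 24 without 0.06 nM replicate 3, 22 without 0.1 nM replicate 3, 21 without 0.1 nM replicate 4 and 16 without 0.06 nM replicate 4.

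**Figure D2:**
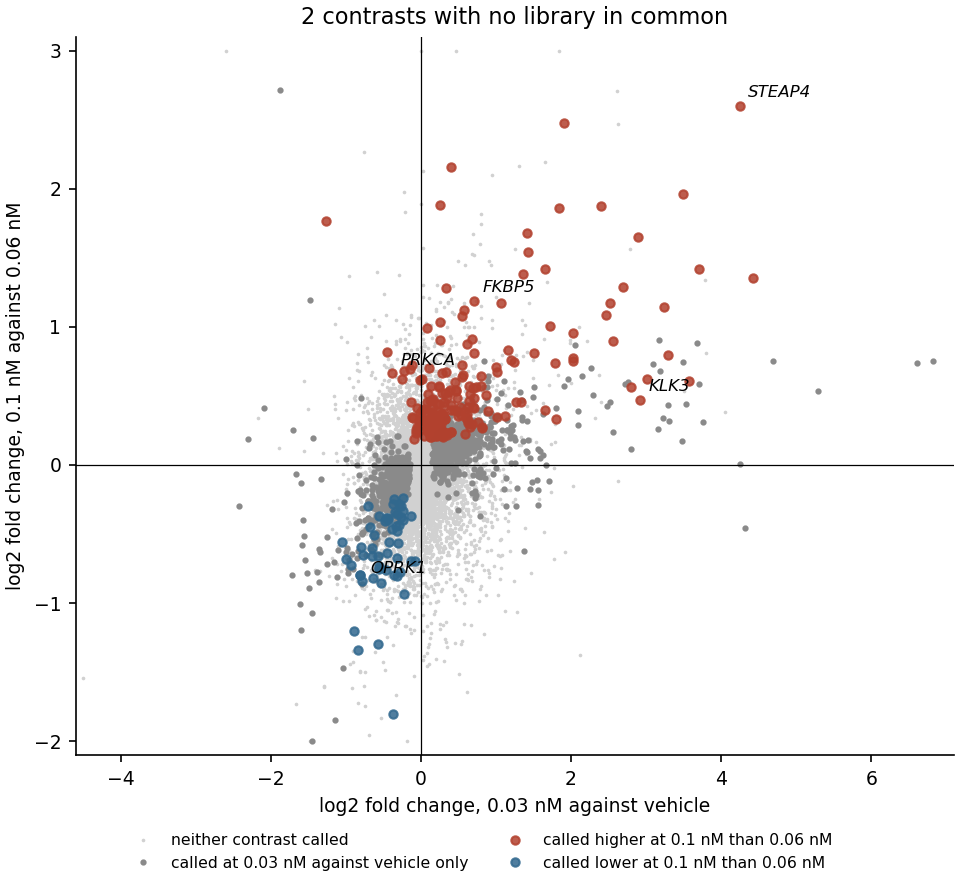
Each gene's log2 fold change for 0.1 nM against 0.06 nM (vertical) and for 0.03 nM against vehicle (horizontal), contrasts with no library in common; 8 genes beyond the axes, none of them called for the step, are drawn at the edge. Called rises (red) lie mostly to the right and called falls (blue) to the left of 0; PRKCA, at -0.38 and 0.67, is the called gene that goes against its class at 0.03 nM.

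The gene called lower at 0.03 nM and higher across the step was PRKCA, the alpha form of protein kinase C (ENSG00000154229.12, chr17:66302636-66810743). It had 40.6, 58.4 and 45.5 CPM at 0.1 nM, against 28, 33.2 and 30.2 CPM at 0.06 nM, so that each 0.1 nM library was above each 0.06 nM library (log2 0.67 ± 0.11, edgeR adjusted p = 0.004). From vehicle through 0.03, 0.06 and 0.1 to 10 nM its means were 29.7, 22.8, 30.4, 48.2 and 129 CPM. At 0.03 nM against vehicle it was lower (log2 -0.38 ± 0.11, edgeR adjusted p = 0.0462). The step was called whichever library was left out, but the call at 0.03 nM was not: the count of genes lower and then higher was 0 without 1 of 8 libraries (vehicle replicate 2, 3 or 4, 0.03 nM replicate 2 or 4, 0.06 nM replicate 2 or 4, or 0.1 nM replicate 4) and 2 without 0.1 nM replicate 2, 10 nM replicate 2 or 10 nM replicate 3.

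With the replicate block more genes could be placed, and 8 were called in opposite directions at 0.03 nM and across the step. Of 1828 genes higher at 0.03 nM in that fit (9.93%), 378 (20.7%) were still rising, 996 (54.5%) were held, 449 were undecided and 5 were falling. Of 1367 lower at 0.03 nM (7.43%), 212 (15.5%) were still falling, 690 (50.5%) held, 462 undecided and 3 rising. Over all genes in that fit 3.23% were higher across the step, 1.66% lower and 47% held. The 5 that were falling, named after their values were seen, were FN1, CALD1, RTN1, DSEL and PEG3. FN1, which encodes the matrix protein fibronectin, had 411, 315 and 384 CPM at 0.1 nM, against 473, 394 and 529 CPM at 0.06 nM. Each 0.1 nM library was below the 0.06 nM library of its number, though the doses overlapped, and the blocked change was -0.33 ± 0.062, edgeR adjusted p = 0.00169. PEG3, an imprinted zinc finger gene, had 113, 126 and 141 CPM at 0.1 nM, against 139, 149.5 and 207 CPM at 0.06 nM, with the same order within each number (blocked change -0.37 ± 0.061, edgeR adjusted p = 0.000528). CALD1, caldesmon, an actin-binding protein, had a blocked change of -0.24 ± 0.056, edgeR adjusted p = 0.0125. DSEL, an enzyme related to dermatan sulfate epimerase, had -0.23 ± 0.053, edgeR adjusted p = 0.0104, and RTN1, a reticulon of the endoplasmic reticulum, had -0.21 ± 0.059, edgeR adjusted p = 0.0405. All 5 were below vehicle at 10 nM in that fit, as were 31% of the genes tested. From vehicle to 10 nM, FN1 had means of 366, 456, 465, 370 and 134 CPM and CALD1 of 634, 708, 629, 532 and 366 CPM. The 3 rising were PRKCA, NAMPT, the enzyme that salvages nicotinamide for NAD synthesis (blocked change 0.24 ± 0.043, edgeR adjusted p = 0.00147), and PDZRN3, a PDZ domain ubiquitin ligase (0.35 ± 0.077, edgeR adjusted p = 0.00761); all 3 were above vehicle at 10 nM (32.1% of genes were). In the fit without the block none of FN1, CALD1, RTN1, DSEL, PEG3, NAMPT and PDZRN3 was called for the step.

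**Figure D3:**
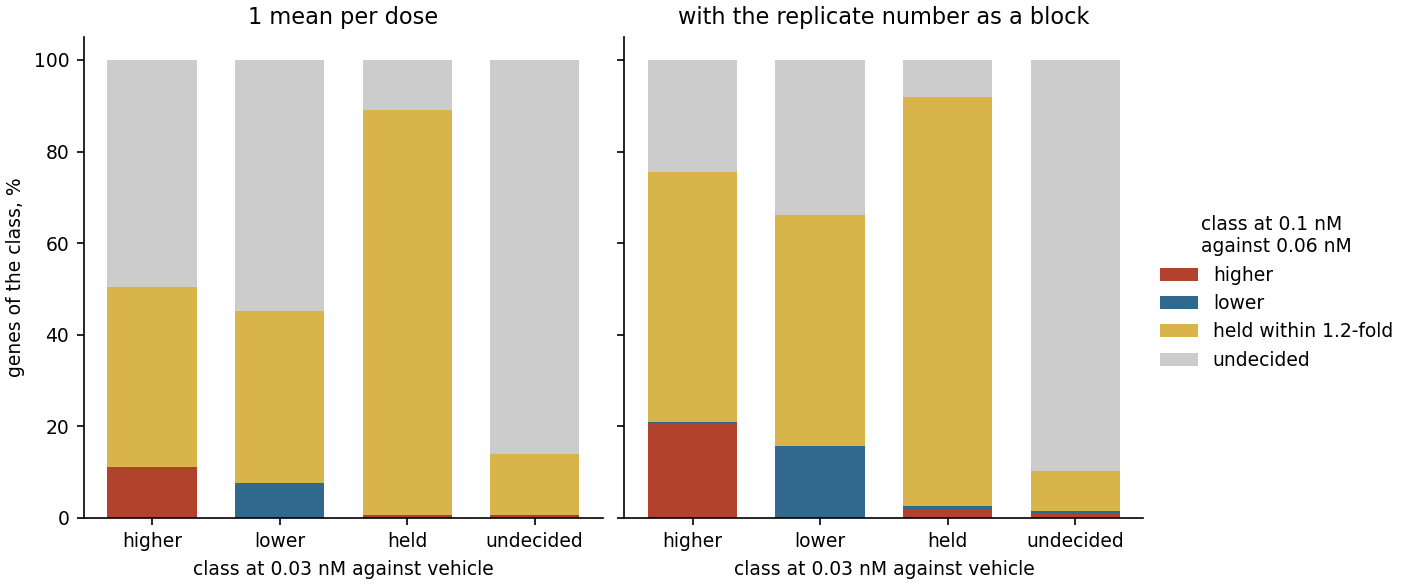
Share of genes in each class at 0.1 nM against 0.06 nM (stacked, in percent), by their class at 0.03 nM against vehicle, without (left) and with (right) the replicate number as a block. Among genes higher at 0.03 nM, 11% are called higher again without the block and 20.7% with it; hardly any segment of the opposite direction is visible.

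A direct test of the turn found none that passed. It compared the log2 change per doubling of dose from 0.06 to 0.1 nM with that from 0.03 to 0.06 nM, and edgeR called 0 genes steeper and 0 shallower. At an unadjusted p under 0.05, 180 of 18403 genes were steeper and 220 shallower. That is fewer than this threshold passes on average when no gene changes. The smallest adjusted p was 1, DESeq2 called 0 with a smallest adjusted p of 0.0608, and the block gave 0 with 0.33. Genes with the smallest unadjusted p on the steeper side were LIFR, the leukaemia inhibitory factor receptor, the orphan nuclear receptor NR4A1, the cytochrome P450 CYP2U1, IQUB, DNAJC12 and the condensin II subunit NCAPD3. LIFR had 58.8, 74.5 and 59.1 CPM at 0.1 nM, against 39.4, 38.4 and 39 CPM at 0.06 nM. The 0.1 nM libraries stood well apart from the 0.06 nM libraries (step log2 0.72 ± 0.076, edgeR adjusted p = 7.57e-05), whereas its means at vehicle, 0.03 and 0.06 nM all lay between 33.7 and 38.9 CPM. NCAPD3 had 254, 255 and 270.4 CPM at 0.1 nM, against 167, 152 and 171 CPM at 0.06 nM, also without overlap (step log2 0.67 ± 0.062, edgeR adjusted p = 1.99e-05). On the shallower side were TBX15, CCDC141, DDX11, CHTF18, THBS1 and CROCC. CHTF18, a subunit of a clamp loader used in replication, had 64.8, 64 and 65.4 CPM at 0.1 nM, against 68.2, 59.7 and 69.9 CPM at 0.06 nM. Its doses overlapped, and its change across the step was held (-0.028 ± 0.066, 95% interval -0.17 to 0.11) beside means of 41.5, 48.8, 65.9, 64.8 and 43.7 CPM from vehicle to 10 nM. Without the 5 libraries numbered 3 and with the block, CHTF18 was called shallower and BRI3 and RN7SL1 steeper; these 3 are named after their values were seen.

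Where the called genes stood at 10 nM could be asked from libraries that the step did not use. All 197 genes that rose were also higher at 10 nM than in vehicle (29.3% of tested genes were), and 53 of the 54 that fell were lower there (28.3%); the exception, TMEM88, was undecided. The highest mean of the 5 doses was at 10 nM in 193 of the 197, and the highest mean was vehicle's in all 54. The 4 with their highest mean at 0.1 nM, named after their values were seen, were FAM111B, a protease gene linked to replication, DEPDC1, EMP2 and RIPOR2. FAM111B averaged 182 ± 12 CPM at 0.1 nM and 142 ± 3.92 CPM at 0.06 nM, beside 151 CPM at 10 nM and 42.7 CPM in vehicle. DEPDC1, a gene of dividing cells, averaged 57.3 ± 4.15 CPM at 0.1 nM and 46.4 ± 1.94 CPM at 0.06 nM, beside 38.5 CPM at 10 nM. FAM111B, DEPDC1 and EMP2 were lower at 10 nM than at 0.1 nM (19.5% of genes were), a comparison that shares the 0.1 nM libraries with the step. Among the genes lower at 0.1 nM, ZNF467 and TMEM88 had their lowest mean at 0.1 nM rather than at 10 nM.

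How much of the 10 nM response had been reached was read on the linear CPM scale, on which a given log2 change is a smaller share of a rise than of a fall. Among 664 genes at least 2-fold higher at 10 nM than in vehicle with a mean of at least 5 CPM, the median share of the 10 nM rise was 7.24% at 0.03 nM, 18% at 0.06 nM and 31.1% at 0.1 nM. Among 597 genes at least 2-fold lower it was 25.6%, 47.5% and 63.7%. Individual genes differed widely. FKBP5 stood at 17.7% of its 10 nM rise at 0.1 nM and at 6.38% at 0.06 nM, STEAP4 at 2.82% and 0.465%, and KLK3 at 52.9% and 37.4%. OPRK1 had completed 84.5% of its fall at 0.1 nM and 70.3% at 0.06 nM. These shares are a description over genes chosen on the 10 nM and vehicle libraries.

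**Figure D4:**
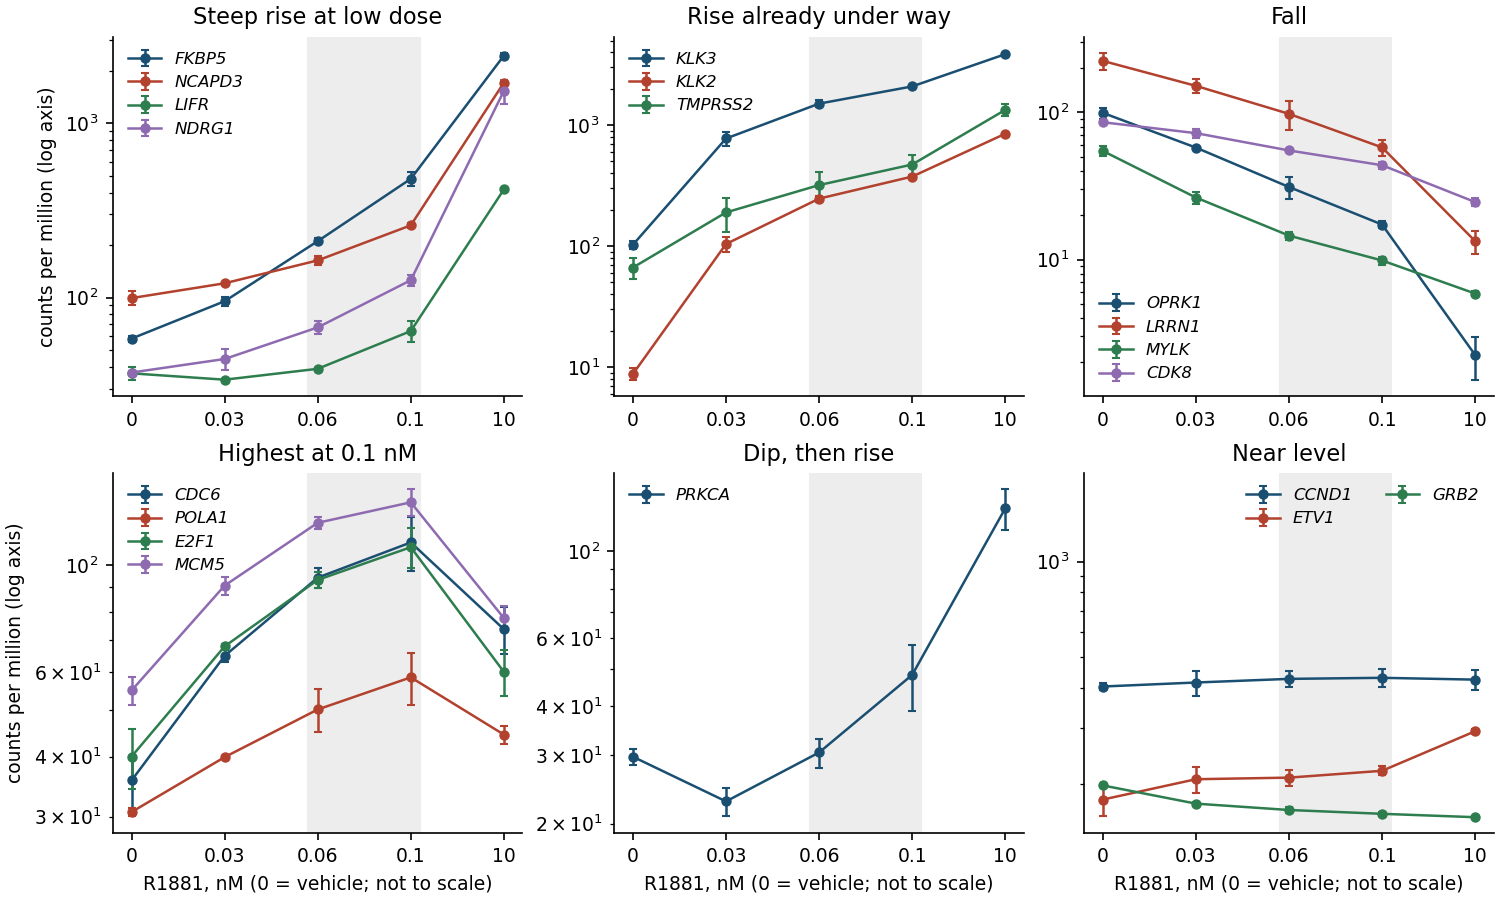
Mean ± SD (n = 3 libraries) in CPM on a log axis for 19 genes across the 5 doses, with the step from 0.06 to 0.1 nM shaded; the dose axis is not to scale. Across the step the change is log2 1.19 for FKBP5 and 0.47 for KLK3, the replication genes and E2F1 have their highest mean at 0.1 nM, and PRKCA dips at 0.03 nM.

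Most classical androgen targets rose. Of 35 androgen-induced targets, a list drawn up with earlier results of these data known, 24 were called higher (1.07% of all genes were). None was lower, 1 was held and 10 were undecided, with a median log2 change of 0.46 (all genes -0.0014). KLK3, prostate-specific antigen (ENSG00000142515.15, chr19:50854915-50860764), had 2069, 2172 and 2020 CPM at 0.1 nM, against 1549, 1569 and 1393 CPM at 0.06 nM. The doses did not overlap, a 1.39-fold rise (log2 0.47 ± 0.083, edgeR adjusted p = 0.00526). KLK2, a neighbouring kallikrein protease and close paralog of KLK3 with which reads may be shared, had 366, 391 and 369 CPM at 0.1 nM, against 262, 239.6 and 238 CPM at 0.06 nM, 1.52-fold higher (log2 0.61 ± 0.08, edgeR adjusted p = 0.000468). The AGAACA match of KLK3's promoter is printed above.

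STEAP4, a metalloreductase, rose most in this list: 2.72, 4.9 and 4.33 CPM at 0.1 nM, against 0.758, 0.691 and 0.524 CPM at 0.06 nM (log2 2.60 ± 0.25, edgeR adjusted p = 1.99e-05). It was far below its 10 nM level of 142 CPM at both doses. ACSL3, which activates fatty acids, had 465, 493 and 506 CPM at 0.1 nM, against 312, 309.8 and 296 CPM at 0.06 nM (log2 0.67 ± 0.061, edgeR adjusted p = 1.99e-05), and its doses were far apart relative to their spread. TMPRSS2, a membrane serine protease, had 414, 580.4 and 421 CPM at 0.1 nM, against 294, 416 and 248 CPM at 0.06 nM. The libraries overlapped by a small margin, with the libraries numbered 3 highest at both doses, and the gene was undecided (log2 0.57 ± 0.20, edgeR adjusted p = 0.267); with the block it was called (0.58 ± 0.068, edgeR adjusted p = 9.33e-06). The cation channel TRPM8 was undecided as well (log2 0.31 ± 0.16, edgeR adjusted p = 0.577; with the block 0.30 ± 0.072, edgeR adjusted p = 0.0142). With the block 30 of the 35 were higher, and without 0.06 nM replicate 4 the count was 12; KLK3 and SLC45A3 lost their calls there. Of the 18 luminal markers, some of them in the induced list too, 4 were higher (KLK2, KLK3 and SLC45A3 among them), 9 higher and 1 lower with the block, and 1 higher without 0.06 nM replicate 4.

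Androgen-repressed genes lay on the other side. This list too was drawn up with earlier results of these data known. Of its 24 genes 8 were lower (0.293% of all genes were), none higher, 1 held and 15 undecided, with a median of -0.55. Besides OPRK1, VWA2 and SI, the 8 were MYLK, AMIGO2, CDK8, DAB1 and GRB10. MYLK, myosin light chain kinase, had 9.17, 10.1 and 10.3 CPM at 0.1 nM, against 13.6, 14.6 and 15.4 CPM at 0.06 nM (log2 -0.56 ± 0.085, edgeR adjusted p = 0.00145), with every 0.1 nM library lower. AMIGO2, an adhesion molecule, had 1.94, 2.31 and 1.72 CPM at 0.1 nM, against 3.18, 4.25 and 3.09 CPM at 0.06 nM (log2 -0.80 ± 0.14, edgeR adjusted p = 0.00592). CDK8, a kinase of the Mediator complex, had 46.4, 41.7 and 43.2 CPM at 0.1 nM, against 55.4, 55.3 and 54.8 CPM at 0.06 nM (log2 -0.33 ± 0.06, edgeR adjusted p = 0.00611), a smaller fall with little spread at 0.06 nM. PLD1, a phospholipase D, had 0.407, 0.479 and 0.802 CPM at 0.1 nM, against 1.13, 0.757 and 0.918 CPM at 0.06 nM and was undecided (log2 -0.78 ± 0.25, edgeR adjusted p = 0.186). With the block 17 were lower and 1 higher (1.66% and 3.23% of all genes were). Without 0.06 nM replicate 2, 0.06 nM replicate 3 or 0.1 nM replicate 4 the count lower was 5, and without 0.06 nM replicate 4 or 0.1 nM replicate 3 it was 4.

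Several transcription factors and regulators were level. MYC, a growth-promoting factor, was held (-0.062 ± 0.057), as were ETV1, an ETS factor rearranged in LNCaP (0.071 ± 0.076), and cyclin D1, CCND1 (0.011 ± 0.07). GATA2, a zinc finger transcription factor, was undecided (log2 -0.20 ± 0.056, edgeR adjusted p = 0.115) and lower with the block (-0.20 ± 0.043, edgeR adjusted p = 0.00585). GRHL2, an epithelial factor, was undecided (log2 0.23 ± 0.078, edgeR adjusted p = 0.225) and higher with the block (0.23 ± 0.047, edgeR adjusted p = 0.00387). Other genes that had moved at 0.03 nM were held with narrow intervals here, among them the adaptor GRB2 (-0.04 ± 0.04), the purine synthesis enzyme GART (0.068 ± 0.043) and SMCHD1, a chromatin protein (0.11 ± 0.043).

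In the lists of DNA replication and mitosis most genes had their highest mean of the 5 doses at 0.1 nM. Without the replicate block none passed the test for the step, and with it 6 replication and 16 mitosis genes were called higher. NCAPD3 and DEPDC1, called higher above, are in neither list. None of 45 DNA replication genes was called, 8 were held and 37 undecided. Of the 45 estimates 44 were above 0 (49.5% of all genes were), with a median of 0.15 (all genes -0.0014), and 44 had their highest mean of the 5 doses at 0.1 nM, as did 2565 of all 18403 genes. Among 38 mitosis genes none was called or held, 37 estimates were above 0 (median 0.18) and 37 had their highest mean at 0.1 nM. CDC6, which loads the replicative helicase, had 111, 97.5 and 126 CPM at 0.1 nM, against 96.7, 88.8 and 97.1 CPM at 0.06 nM. The 0.1 nM libraries were each above the 0.06 nM library of their number, and the change was undecided (log2 0.24 ± 0.096, edgeR adjusted p = 0.357); with the block it was called (0.24 ± 0.054, edgeR adjusted p = 0.00956). POLA1, the catalytic subunit of DNA polymerase alpha, whose promoter with an E2F motif is printed above, had 55.5, 53.1 and 66.7 CPM at 0.1 nM, against 52.4, 44.3 and 53.7 CPM at 0.06 nM (step log2 0.22 ± 0.078, edgeR adjusted p = 0.273; with the block 0.22 ± 0.058, edgeR adjusted p = 0.0297). The helicase subunit MCM5 had 136, 126 and 144 CPM at 0.1 nM, against 123, 119 and 126 CPM at 0.06 nM, undecided (log2 0.14 ± 0.061, edgeR adjusted p = 0.439) and held with the block.

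With the block 6 replication genes and 16 mitosis genes were higher, beside 3.23% of all genes, and none lower. ANLN, a scaffold of cytokinesis, had 122, 105 and 126 CPM at 0.1 nM, against 103, 83.5 and 104 CPM at 0.06 nM (step log2 0.28 ± 0.12, edgeR adjusted p = 0.45; with the block 0.28 ± 0.048, edgeR adjusted p = 0.000734). Its replicate 3 libraries were the lowest of both doses. NCAPG, a condensin subunit, and SPC25, of the outer kinetochore, were called with the block too (0.26 ± 0.051, edgeR adjusted p = 0.00256 and 0.29 ± 0.064, edgeR adjusted p = 0.00692). Without the 5 libraries numbered 3 the counts were 4 and 7, and with the block as well 17 and 30. At an unadjusted p under 0.05 in edgeR 10 replication and 2 mitosis genes were higher and none lower, and DESeq2 called 1 and 0. Over all 18403 genes 1001 were higher and 824 lower at that unadjusted threshold, beside which the unadjusted counts below are also to be read. Of 19 G1 cyclins and E2F factors none was called and 9 were held; with the block 3 were higher, E2F1 (0.22 ± 0.057, edgeR adjusted p = 0.0239) and CDK6 (0.51 ± 0.12, edgeR adjusted p = 0.00995) among them. DNA repair genes had 0 called of 28, with 24 above 0 and a median of 0.12; with the block 3 were higher, MSH6 of mismatch repair among them, and BARD1, the partner of BRCA1, was lower (-0.28 ± 0.061, edgeR adjusted p = 0.00585). Of 14 cell cycle inhibitors 5 were held and none was called, CDKN1A, or p21, at -0.13 ± 0.084. Ribosome biogenesis had the most genes held of these lists: 27 of 30 were held, and none was called with or without the block. Of its estimates 27 lay above 0, with a median of 0.046, and 22 did with library totals in place of TMM factors. The inhibitors had 7 estimates above 0 and a median of 0.0076. At an unadjusted p under 0.05 there were 2 G1 genes higher, 3 repair genes higher and 1 lower, 1 inhibitor lower and no ribosome biogenesis gene; DESeq2 called 0 in these 4 lists.

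**Figure D5:**
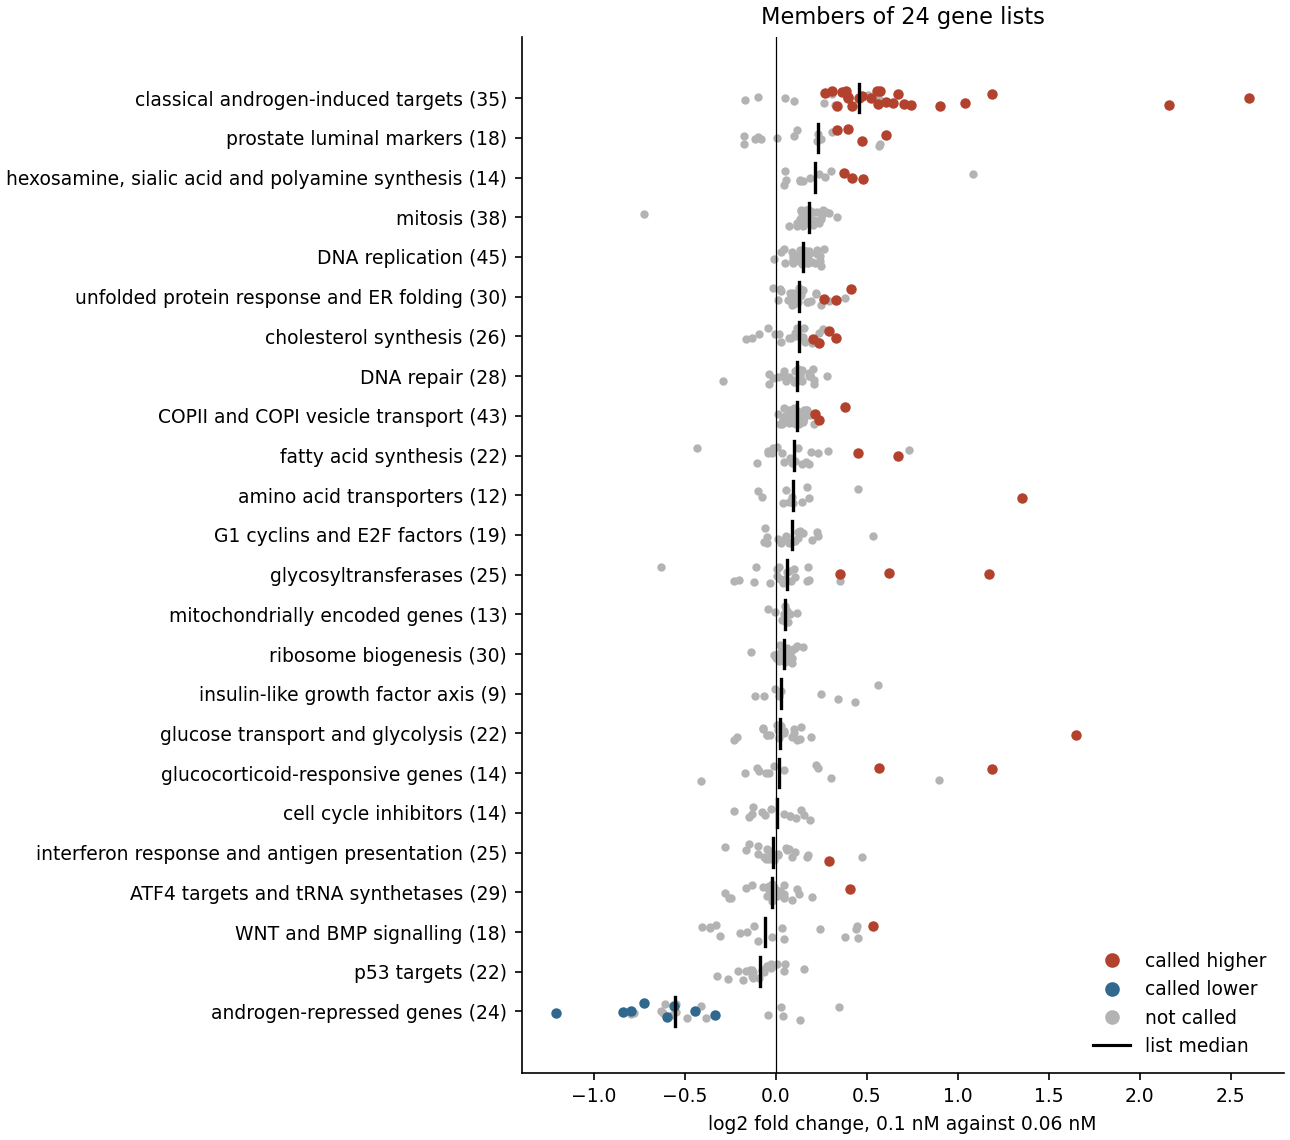
Log2 fold change of each tested member of 24 gene lists at 0.1 nM against 0.06 nM, with the number tested in brackets; red and blue points were called, grey points were not, and black lines are list medians. Androgen-induced targets lie highest (median 0.46, 24 of 35 called higher) and androgen-repressed genes lowest (median -0.55, 8 of 24 called lower), while ribosome biogenesis lies close to 0. The lists were drawn up with earlier results of these data known.

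A few genes for folding and exporting proteins rose, and most estimates lay above 0. All 43 genes of the list named for COPII and COPI vesicle transport had estimates above 0 (median 0.11). Of these, 3 were called, 32 held and 8 undecided. At an unadjusted p under 0.05, 18 of the 43 were higher and none lower. Of the 30 folding genes 13 were higher and none lower at that threshold, beside 1001 and 824 of all 18403 genes. Over all genes 1.07% were called higher, 40.4% were held and 49.5% were above 0, the shares beside which the folding, sugar and lipid lists that follow are also to be read. SEC24D, a cargo adaptor of the COPII coat, had 51.1, 51.6 and 52.4 CPM at 0.1 nM, against 41.2, 41.5 and 36.8 CPM at 0.06 nM (log2 0.38 ± 0.075, edgeR adjusted p = 0.0143). Its doses were separate. SSR3 and SSR1, subunits of the translocon-associated complex and not of a vesicle coat, were the other 2 called of that list (0.24 ± 0.052 and 0.22 ± 0.051). In the unfolded protein response and folding list 29 of 30 were above 0 (median 0.13), with 3 called. DNAJB9, a folding helper inside the endoplasmic reticulum, had 22.4, 26.2 and 22.6 CPM at 0.1 nM, against 17.9, 19.4 and 16.4 CPM at 0.06 nM (log2 0.41 ± 0.078, edgeR adjusted p = 0.00941). EDEM3, which trims glycans of misfolded proteins, rose by log2 0.33 ± 0.055 (edgeR adjusted p = 0.00323) and ERO1A, an oxidase that forms disulfide bonds, by 0.27 ± 0.059. With the block, which called 3.23% of all genes higher, 9 transport and 10 folding genes were higher, CREB3L4, a membrane-bound factor of this response, among them (0.29 ± 0.046, edgeR adjusted p = 0.000287). These calls changed when 1 library was left out, which also leaves fewer libraries at a dose. The 3 transport genes became 1 without 0.06 nM replicate 2 or 0.1 nM replicate 3 and 0 without 0.06 nM replicate 4 or 0.1 nM replicate 4. The 3 folding genes became 1 without 0.06 nM replicate 4 or 0.1 nM replicate 3. Over the fits without 1 library the estimates were 0.32 to 0.41 for SEC24D, 0.21 to 0.28 for SSR3 and 0.19 to 0.26 for SSR1. Library totals in place of TMM factors left 41 of 43 transport genes above 0 and SEC24D as the 1 called of them, and ended the call of ERO1A; leaving out the libraries numbered 3 ended those of SSR1 and ERO1A.

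Estimates for sugar and polyamine enzymes lay above 0 as well. All 14 genes of hexosamine, sialic acid and polyamine synthesis were above 0 (median 0.21), with 3 called. At an unadjusted p under 0.05, 10 of them were higher and none lower. UAP1, which makes UDP-GlcNAc, had 371, 394 and 400.4 CPM at 0.1 nM, against 280.4, 309.6 and 282 CPM at 0.06 nM (log2 0.42 ± 0.06, edgeR adjusted p = 0.000903). The libraries did not overlap. SMS, spermine synthase, rose by log2 0.48 ± 0.085 (edgeR adjusted p = 0.00612) and SAT1, which acetylates spermidine and spermine for export, by 0.38 ± 0.071 (edgeR adjusted p = 0.00941). With the block 6 were higher, PGM3 included; without 0.03 nM replicate 3 there were 5 and without 0.1 nM replicate 4 there was 1, UAP1. Among 25 glycosyltransferases 3 were higher: CSGALNACT1, the sialyltransferase ST6GALNAC1 with 42, 35.9 and 40.02 CPM at 0.1 nM, against 27.6, 24.7 and 24.4 CPM at 0.06 nM (log2 0.62 ± 0.12, edgeR adjusted p = 0.0104), and GCNT1, which branches O-glycans (log2 0.35 ± 0.056, edgeR adjusted p = 0.00208). The 3 became 1 without 0.06 nM replicate 4 or 0.1 nM replicate 4, and with the block 5 were higher and 3 lower.

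A few genes of lipid synthesis rose. Of 26 cholesterol genes 4 were higher, 11 held and 11 undecided, with a median of 0.13. At an unadjusted p under 0.05, 12 of them were higher and 2 lower, and of the 22 fatty acid genes 8 were higher and 1 lower. HMGCS1, an early enzyme of the pathway, averaged 136 ± 4.44 CPM at 0.1 nM and 115 ± 0.97 CPM at 0.06 nM (SD, n = 3 each; log2 0.24 ± 0.046, edgeR adjusted p = 0.0118). Its doses did not overlap. INSIG1, a sterol-regulated brake on the pathway, rose by log2 0.29 ± 0.067, and FDFT1, squalene synthase, by log2 0.21 ± 0.048. The count was 2 without 0.06 nM replicate 2 and 1 without 0.06 nM replicate 4, 0.1 nM replicate 3 or 0.1 nM replicate 4, and 10 with the block. Library totals in place of TMM factors ended the calls of HMGCS1, INSIG1 and FDFT1. Of 22 fatty acid genes ACSL3 and the elongase ELOVL7 (log2 0.45 ± 0.11, edgeR adjusted p = 0.0403) were higher and 8 were held. With the block 6 were higher, ELOVL5 (0.29 ± 0.045, edgeR adjusted p = 0.000269) and ACLY, ATP citrate lyase (0.17 ± 0.048, edgeR adjusted p = 0.0474), among them; the ELOVL7 call was lost without 0.06 nM replicate 2, 3 or 4, 0.1 nM replicate 3 or 4, or replicate 4 of vehicle, 0.03 or 10 nM.

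Each of the remaining lists held at most 2 called genes without the block. Over all genes 1.07% were called higher, 0.293% lower and 40.4% held, and 49.5% of estimates were above 0. With the block 3.23% of all genes were higher and 1.66% lower. At an unadjusted p under 0.05 without the block, 1001 of all 18403 genes were higher and 824 lower. The lists of this paragraph and the next are to be read beside these shares. SLC2A3, the glucose transporter GLUT3, had 1.76, 1.94 and 2.58 CPM at 0.1 nM, against 0.758, 0.757 and 0.472 CPM at 0.06 nM (log2 1.65 ± 0.22, edgeR adjusted p = 0.000393), the only called gene of 22 for glucose transport and glycolysis, of which 15 were held. SLC38A4 was the 1 called of 12 amino acid transporters; SLC43A1, a transporter of large neutral amino acids, was undecided (log2 0.45 ± 0.13, edgeR adjusted p = 0.153) and called with the block (0.45 ± 0.066, edgeR adjusted p = 0.000128). Of 29 ATF4 targets and tRNA synthetases VLDLR, a lipoprotein receptor, was higher (log2 0.41 ± 0.096, edgeR adjusted p = 0.0401) and 12 were held; its call was lost without 0.06 nM replicate 2 or 4, 0.1 nM replicate 3 or 4, 0.03 nM replicate 2 or 4, or vehicle replicate 4. Among 14 glucocorticoid-responsive genes FKBP5 and ERRFI1, a feedback inhibitor of the EGF receptor family, were higher. ERRFI1 had 53.5, 58.5 and 57.4 CPM at 0.1 nM, against 37.3, 39.8 and 37.5 CPM at 0.06 nM (log2 0.57 ± 0.085, edgeR adjusted p = 0.00142), without overlap. With the block 5 were higher, including SGK1, a kinase induced by steroids (0.89 ± 0.19, edgeR adjusted p = 0.00495), and PER1, a clock gene (0.30 ± 0.079, edgeR adjusted p = 0.0269).

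B2M, the light chain of class I antigen-presenting molecules, was the 1 called of 25 interferon and antigen presentation genes (log2 0.29 ± 0.068, edgeR adjusted p = 0.0392), a call lost without 0.06 nM replicate 2 or 4 or 0.1 nM replicate 3 or 4. FZD5, a WNT receptor, had 62.4, 73.5 and 73.4 CPM at 0.1 nM, against 47.1, 52.7 and 45 CPM at 0.06 nM (log2 0.53 ± 0.091, edgeR adjusted p = 0.00427), the 1 called of 18 WNT and BMP genes; with the block 2 were higher and 3 lower, SMAD7 among the lower (-0.31 ± 0.087, edgeR adjusted p = 0.0424). In the insulin-like growth factor list none of 9 was called, and with the block IGF1R, the receptor (0.56 ± 0.081, edgeR adjusted p = 0.000109), and IRS2, its adaptor (0.43 ± 0.076, edgeR adjusted p = 0.00107), were higher. Of 22 p53 targets none was called, 10 were held and 4 estimates were above 0 (median -0.085); with the block TP53INP1 (-0.32 ± 0.058, edgeR adjusted p = 0.00129) and SESN1 were lower and TNFRSF10B higher. At an unadjusted p under 0.05 there were 2 growth factor genes higher, and 1 p53 target higher and 2 lower; DESeq2 called 0 growth factor genes and 1 p53 target lower. No member of the mitochondrially encoded, basal, fibroblast, leukocyte and endothelial, or neuroendocrine lists was called by edgeR or DESeq2 (3 lower and 0 higher at an unadjusted p under 0.05); with the block ENO2, counted as neuroendocrine and glycolytic alike, was lower (-0.23 ± 0.059, edgeR adjusted p = 0.0226). Neuroendocrine markers summed to 36.8 to 40 CPM at 0.1 nM and 42.1 to 49.1 CPM at 0.06 nM, fibroblast markers to 29 to 33.1 CPM at 0.1 nM and 31.9 to 38 CPM at 0.06 nM, and luminal markers to 8351 to 8936 CPM at 0.1 nM and 7031 to 7900 CPM at 0.06 nM.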

How the data were processed

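Messenger RNA of LNCaP cells was sequenced with a stranded kit. The authors deposited raw whole-number counts per Ensembl gene (37843 genes, 15 LNCaP libraries); per the submitters' processing notes Trimmomatic 0.39, STAR 2.7.8a and DESeq2 1.36.0 were used on GRCh38, and the read counter, annotation release and strand setting are not given in the sources used here. Another 15 columns, in the VCaP table, match no label and were not used. Columns were mapped to samples by the line, dose and replicate number in their names.

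The analysis used edgeR 4.0.16 (R 4.3.3). Low genes were removed by filterByExpr with dose as the group, leaving 18403, libraries were scaled by TMM, and a quasi-likelihood model gave each dose a mean over all 15 libraries. Tests were two-sided, and calls needed a p under 0.05 after Benjamini-Hochberg adjustment across all genes. SEs come from the fit's information matrix and moderated dispersion. A gene was held if its 95% interval lay within 1.2-fold. The slope contrast divides the step by its 0.737 doublings of dose. Total counts of 30666460 to 46618984 set the precision (median SE 0.104 on the log2 scale).

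Replicate numbers pair the samples by the data: over 13918 genes, deviations from the dose means correlated at 0.33, 0.31 and 0.15 for the same-number pairs (numbers 2, 3 and 4) and at -0.28 to 0.021 for the others. The blocked fit is given where it changes a call or a count.

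Alternatives were RLE size factors, library totals, DESeq2 1.42.0, no filter, a stricter filter (at least 3 libraries at 1 CPM, mean count 20 or more), the block, only the libraries compared, a 1.5-fold bound, each library left out and the 5 libraries numbered 3 left out, with and without the block. The test without the block was checked on simulated counts drawn independently for each library. Those counts hold no effect shared by a replicate number, so the check says nothing about the pairing. Gene symbols matched 37732 IDs; positions are GENCODE 29. Because the strand setting is not given, genes and antisense partners cannot be told apart.

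Named genes were the 12 largest called rises and falls with a symbol, no overlap and 5 CPM or more on average at 0.1 or 0.06 nM, reversals, up to 6 genes each way by slope, up to 4 per list of 29 lists, 6 held genes and 18 fixed genes; not all are printed, and others are named as stated. The members and lists were chosen with earlier results of these data known. Some genes are not reported here.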

Additional observations from a re-analysis of the deposited data

How the results depend on the processing

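Of the 154 genes chosen by the naming rule, no called gene changed direction under any alternative tried, and scaling moved the share of rises among called genes from 78.5% to between 71% (library totals) and 80.2% (RLE). The counts moved more. For genes higher and lower, DESeq2 gave 305 and 82, no filter 339 and 162, the replicate block 594 and 305, leaving out the 5 libraries numbered 3 305 and 103, and that with the block 743 and 341; leaving out 1 library gave 86 to 237 and 20 to 58. Held genes were 12464 with a 1.5-fold bound and 6280 to 7538 without 1 library. Genes higher at 0.03 nM and rising were 167 with DESeq2, 202 with no filter, 378 with the block, 392 with the block without number 3, and 56 to 117 without 1 library; falling genes among them were 3 with no filter, 5 with the block and 16 with the block without number 3, and 0 without any 1 library. Genes lower at 0.03 nM and falling were 65 with DESeq2, 109 with no filter, 212 with the block, 156 with the block without number 3, and 16 to 46 without 1 library; rising genes among them were 2 with DESeq2 or the stricter filter, 3 with the block, 4 with the block without number 3, and 0 to 2 without 1 library. Slope changes were 5 steeper and 3 shallower with no filter, 2 and 1 with the block without number 3, and 0 and 0 without any 1 library. Genes higher at 10 nM and called for the step were 305 with DESeq2, 335 with no filter, 593 with the block, 304 without number 3, 721 without number 3 with the block, and 86 to 237 without 1 library. Of the gene lists, DESeq2 moved the count higher by 1.5 times or more for cholesterol (8, against 4), folding (6, against 3), transport (7, against 3), sugar and polyamine enzymes (5, against 3), glucocorticoid (3, against 2), luminal (6, against 4) and replication genes (1, against 0), and the count lower for p53 targets (1, against 0). No filter did so for mitosis (6, against 0), replication (3, against 0), G1 (2, against 0), growth factor (2, against 0), cholesterol (7), folding (8), sugar and polyamine (6), fatty acid (4, against 2), glucocorticoid (5), luminal (8), amino acid transporter and WNT and BMP genes (2, against 1 in both) and repressed genes (1, against 0), and, for the count lower, for repressed (16, against 8), WNT and BMP (3, against 0) and glycosyltransferase genes (2, against 0) and for inhibitors, repair genes and p53 targets (1, against 0 in each). Fitting only the libraries compared called 145 of the 197 rises and 37 of the 54 falls again. Of the named genes, that fit ended the calls of NATD1, INSIG1, FDFT1, ERO1A, SSR3, SSR1, VLDLR and IQUB. No filter ended that of FDFT1, and leaving out number 3 those of MID1, ERO1A, SSR1, HMGCS1 and IQUB. The cause was not tested. A count of 3 libraries a dose limits what small changes can show: the median SE of 0.104 leaves 58.2% of genes undecided.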

Other observations

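By annotated type, protein-coding genes made up 72.5% of the genes tested, 95.9% of the 197 that rose and 81.5% of the 54 that fell. Antisense genes made up 7.87%, 1.52% (3 genes) and 11.1% (6 genes), and no test of these shares was made. TYMP, thymidine phosphorylase, had means of 11.3, 10.1, 9.85, 8.16 and 14.1 CPM from vehicle through 0.03, 0.06 and 0.1 to 10 nM; it was lower across the step with the replicate block (-0.27 ± 0.078, edgeR adjusted p = 0.0483) and was the 1 gene there that was lower across the step and higher at 10 nM than in vehicle. It was named after its values were seen.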
